A study of Bos taurus with 29 samples.

Results

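Haptoglobin (HP, ENSBTAG00000006354), orosomucoid 1 (ORM1, ENSBTAG00000017294) and the globin chain HBD (ENSBTAG00000038748) are plasma or blood proteins whose transcripts were examined here in the bovine hypothalamus. They were 3 of the 24596 genes of the deposited table and were selected by identifier, with earlier results of these data known. HP and ORM1 are both on the study's own list of diet-responsive transcripts for this tissue, and HBD is on its list for the arcuate nucleus (ARC) of the same calves. The first list was chosen on these samples, so that the membership of HP and ORM1 is not independent evidence of a diet difference. All other genes given here by symbol with values come from these lists as well.

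Poly(A) RNA from 29 Angus × Holstein-Friesian heifer calves had been sequenced at 21 weeks of age, from the hypothalamus that remained after the ARC was dissected out. Each library came from 1 calf, without pooling. The 14 HI calves had a target gain of 1.2 kg per day and received 1.5 kg of milk replacer in 10 L daily with concentrates ad libitum. The 15 MOD calves had a target gain of 0.5 kg per day and received 0.5 kg of milk replacer in 4 L daily with 1 kg of concentrates. According to the labels the diets ran from week 2, with a calf phase of 8 weeks and a post-weaning phase of 11 weeks in which both groups had hay. After weaning, concentrates stayed ad libitum in HI and at 1 kg in MOD. Tissue was taken whole, so that a value mixes neurons, glia, vessels, meninges and any blood in the sample, and fewer cells of a type cannot be told apart from less RNA per cell.

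Haptoglobin binds haemoglobin that has escaped from red cells, which limits oxidative damage and loss of iron. ORM1, or alpha-1-acid glycoprotein, binds lipophilic compounds and modulates immune cells. Both are acute phase proteins, which the liver secretes in large amounts during infection, injury or inflammation under the control of cytokines such as interleukin 6 and of glucocorticoids. In cattle, haptoglobin in plasma is a common clinical marker of inflammation. Globin chains form the haemoglobin of red cells, and globin transcripts in a solid tissue are commonly read as a sign of blood.

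The deposited values held 11820640 to 17206435 reads per library, which are reads counted to genes and not all reads sequenced. In them 1 read was worth 0.0593 to 0.0929 CPM, the read count scaled to a common library size, which is the unit of all levels given here. The 8 hypothalamic peptide genes of a fixed list, among them AVP, OXT, HCRT and PMCH, were all detected, with a summed level of 17.7 to 1354 CPM in HI and 7.91 to 4707 CPM in MOD. Calves MOD 1689, HI 2120, MOD 1395 and MOD 2551 stood apart from the rest, with mean log2 distances of 3.13 to 3.51 to the other calves against at most 2.44 for any other calf. Results were therefore also computed without them. Sequencing files carried 5 file-name prefixes, and each prefix held calves of both diets.

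All 3 transcripts were low in most calves and high in a small number. The 3 highest calves were not the same for any pair of them, which is common for lists this short. HP was highest in 3 MOD calves, ORM1 in 3 HI calves and 1 MOD calf, and HBD in 3 HI calves. By means, HP was lower and ORM1 and HBD were higher in HI. By medians all 3 were higher in HI. No difference passed the test across all genes.

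HP ranged from 0.222 CPM to 7.33 CPM in HI, with a median of 2.63 CPM. In MOD it ranged from 0.174 CPM to 43.8 CPM, with a median of 1.51 CPM. The diets overlapped, and the MOD range enclosed the whole HI range. MOD calves 2532, 1395 and 2537 had 43.8, 29.2 and 21.0 CPM of HP and exceeded every HI calf. These were also the only calves above 10 CPM. The 3 together held 80.8% of all HP signal in MOD, and calf 2532 alone held 37.6%. HP was found in all 29 calves, from 2 reads in MOD calf 991 to 687 reads in MOD calf 2532, and 22 calves had more than 1 CPM. At the low end, 4 MOD calves and 1 HI calf had fewer than 10 reads, so that MOD held both the highest and the lowest values.

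ORM1 ranged from 0.0816 CPM to 103 CPM in HI around a median of 1.31 CPM. In MOD it ranged from 0 to 21.1 CPM around a median of 0.715 CPM. ORM1 had fewer than 10 reads in 5 HI and 7 MOD calves, and the median was 16.5 reads in HI and 10 reads in MOD. HI calves 2570, 2528 and 2535, with 103, 35.5 and 25.7 CPM of ORM1, lay above the highest MOD calf, and they held 90.9% of the HI signal. In MOD, calf 3622 with 21.1 CPM held 62.0% of the signal, and the calf ranked after it had 3.44 CPM. MOD calf 1395, which ranked second in HP, had no ORM1 read, and a count of 0 allows up to 0.201 CPM in that library (3 reads, counting error only). HI calf 553 and MOD calf 1057 had 1 ORM1 read each. In all, 8 HI and 6 MOD calves exceeded 1 CPM, which is 14 calves and the smallest number that passed the expression filter.

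HBD ranged from 0 to 3.06 CPM in HI, with a median of 0.823 CPM. In MOD it ranged from 0 to 2.07 CPM, with a median of 0.153 CPM. The diets overlapped over most of their range, and HI calves 986, 1531 and 1050, with 3.06, 2.68 and 2.14 CPM, exceeded the highest MOD calf, 981. The largest count was 43 reads, in HI calf 1531. In 18 calves HBD had fewer than 10 reads, 7 in HI and 11 in MOD. HI calf 3148 and MOD calves 911, 975 and 991 had no HBD read, which allows up to 0.178, 0.229, 0.211 and 0.261 CPM, respectively. HBD exceeded 1 CPM in 6 HI and 2 MOD calves and did not pass the filter. Reads of near-identical globin genes may also have been assigned to or lost from HBD, and its values are uncertain in that respect. CPM values are not corrected for transcript length, so that levels are not compared between the 3 genes.

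**Figure D1:**
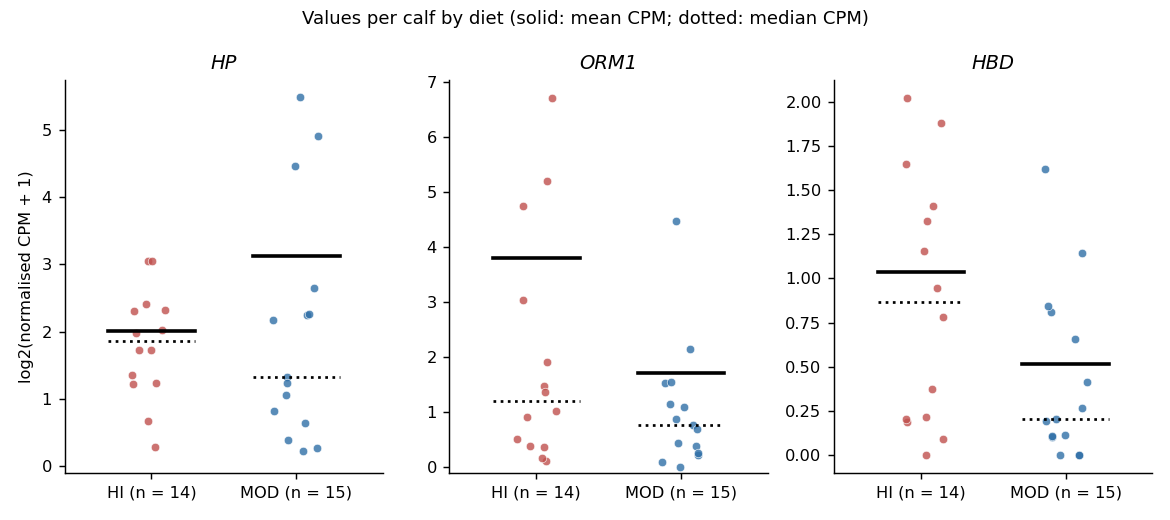
Level of HP, ORM1 and HBD in each of 14 HI and 15 MOD calves, as log2(normalised CPM + 1), with the mean CPM (solid line) and the median CPM (dotted line) of each diet drawn on the same scale. For HP the mean is higher in MOD and the median higher in HI, and 3 MOD calves lie above 10 CPM, whereas for ORM1 and HBD both lines are higher in HI.

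The spread between calves was far above that of most genes. Over the 29 calves, the coefficient of variation was 176% for HP, 273% for ORM1 and 119% for HBD, against a median of 32.7% over the 13785 genes tested, and it was lower in 99.9%, 99.99% and 99.4% of these genes. At a level of a few reads, counting alone gives a large coefficient of variation. Measured within the diets against Poisson counting error, the variance of the reads was 168 times that error for HP and 497 times for ORM1. The median over the genes tested was 25.9 times. For HBD it was 12.3 times, below that median. The biological coefficient of variation of edgeR, which removes counting error, was 1.14 for HP, 1.56 for ORM1 and 1.17 for HBD, and 0.331 for the median gene.

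A single calf held 27.5% of the summed HP signal of all 29 calves and 48.0% of that of ORM1. Only 0.58% of the genes tested had a calf with more than 20%. For HBD the highest calf held 14.4%, and the median gene had 5.995%. The 3 highest calves held 59.2% of HP, 76.5% of ORM1 and 37.2% of HBD, against 16.4% for the median gene. ORM1 was thus the most concentrated of the 3 in single calves and HBD the least.

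The diet difference of HP changed direction with the summary used. The mean of HP was 7.76 ± 13.1 CPM (SD, n = 15) in MOD, 2.55 times the 3.04 ± 2.20 CPM (SD, n = 14) of HI. The difference of means, -4.72 CPM (HI minus MOD), did not pass the test in which diets were permuted (permutation test of 100000 resamples, two-sided, p = 0.224). The median of HP was 1.12 CPM higher in HI, a ratio of 1.74 (permutation p = 0.586). The MOD median was exceeded by 10 of the 14 HI calves and the HI median by 7 of the 15 MOD calves. Means and medians pointed in opposite directions in 21.5% of the genes tested, and 13% had, like HP, a lower mean and a higher median in HI.

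Mean ORM1 was 12.9 ± 28.1 CPM (SD, n = 14) for HI against 2.26 ± 5.28 CPM (SD, n = 15) for MOD. The ratio was 5.70, and the difference of means of 10.6 CPM did not pass the test either (permutation p = 0.111). The difference of medians, 0.592 CPM, was smaller and had a permutation p of 0.316. Of the HI calves, 9 of 14 exceeded the MOD median of ORM1, whereas 4 of 15 MOD calves exceeded the HI median. The difference of means rested on single calves: it was 3.71 CPM without HI calf 2570 (permutation p = 0.249) and 11.98 CPM without MOD calf 3622 (permutation p = 0.0471).

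For HBD the HI mean was 1.05 ± 1.03 CPM (SD, n = 14) and the MOD mean 0.432 ± 0.581 CPM (SD, n = 15), a ratio of 2.44 (permutation p = 0.052). The HI median was 5.38 times the MOD median (permutation p = 0.0426). The MOD median was exceeded by 10 of 14 HI calves, and 2 of 15 MOD calves exceeded the HI median. In reads the medians were 9.5 and 2, so that the ratio of medians rests on few reads. The p-values of means and medians form a family of 6 tests and are not adjusted, and with any of 20 of the 29 calves left out the p of the HBD medians was above 0.05, from 0.0223 to 0.197 over all omissions. All 3 members had diet means more than 2-fold apart in either direction, as had 0.225% of the genes tested. HBD was not among the genes tested, so that this share is no baseline for it. The study's list, which holds HP and ORM1, was chosen for differences of this kind.

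On the log2(CPM + 1) scale, limma gave HP a log2 fold change (HI minus MOD) of -0.20 (standard error 0.48, 95% confidence interval -1.18 to 0.78, p = 0.682). That of ORM1 was 0.95 (standard error 0.59, interval -0.26 to 2.16, p = 0.12). HBD, which had not passed the filter, was fitted among the 19525 genes that had any read and had 0.44 (standard error 0.22, interval 0.0018 to 0.88, p = 0.0491). The adjusted p by limma was 0.999 for each, and 0 of the 3 members were called at an adjusted p under 0.10 and a fold change over 1.5. Over all genes tested 0% were called, and 1.3% had an unadjusted p under 0.05, or 1.89% of the genes with a read. The intervals of HP and ORM1 held 0.

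**Figure D2:**
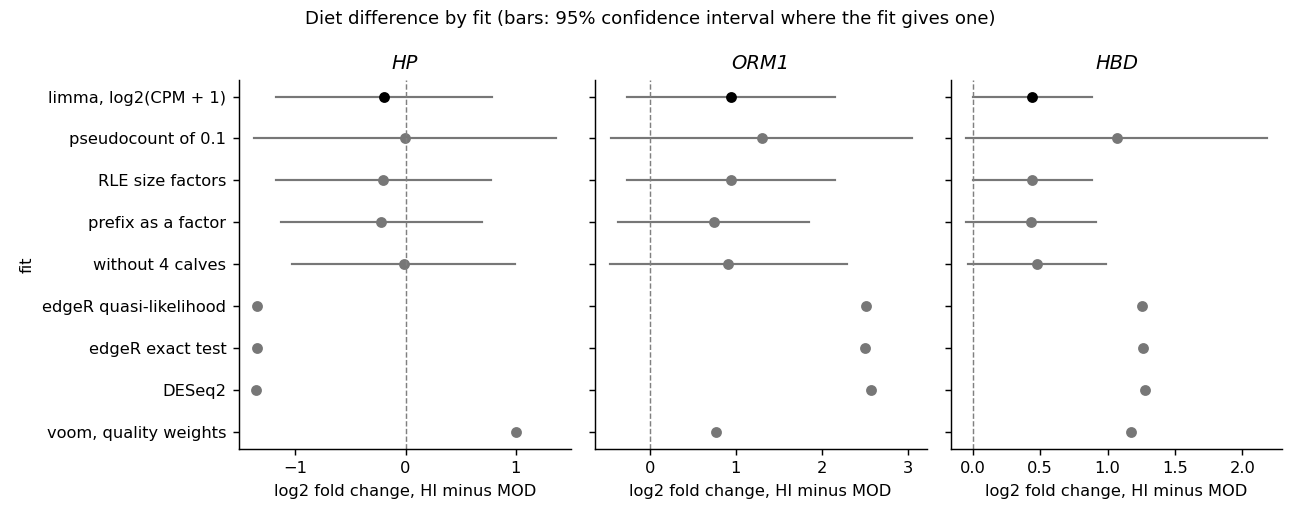
Log2 fold change (HI minus MOD) of HP, ORM1 and HBD under limma on log2(CPM + 1) (black) and 8 other fits (grey), with the 95% confidence interval where the fit gives one. HP lies between -1.35 for the count models and 1.00 with sample quality weights, whereas ORM1 and HBD lie above 0 in each fit shown.

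The count models on whole reads, which follow the means more closely, gave HP a log2 fold change of -1.35 in edgeR's quasi-likelihood test (p = 0.0517), and ORM1 and HBD 2.52 and 1.25 (p = 0.0113 and 0.055). The exact test of edgeR gave -1.35, 2.51 and 1.262 (p = 0.0357, 0.00543 and 0.0555). The adjusted p by both edgeR tests was 0.997 or more for each. DESeq2 gave -1.35, 2.57 and 1.28 (p = 0.0279, 0.000216 and 0.0497), with an adjusted p of 0.595 for ORM1, the lowest adjusted p of that transcript in any fit on all calves. With sample quality weights in limma-voom, which give less weight to libraries that deviate from the rest, HP turned to 1.00, higher in HI (adjusted p = 0.453). Without the 4 calves that stood apart, the limma values were -0.017 for HP, 0.91 for ORM1 and 0.48 for HBD. HP also turned with single calves left out, in 2 of 29 omissions, and was highest without MOD calf 2532, at 0.049.

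By file-name prefix, the mean log2 level of HP was higher in HI in 3 of 5 prefixes and lower in 2, from 0.73 in prefix 7 to -1.95 in prefix 9, which holds calves 2532 and 2537. That of ORM1 was also higher in HI in 3 of 5, with 2.97 in prefix 9. HBD was higher in HI in 4 of 5 prefixes, from -0.14 to 0.72. With the prefix as a factor in limma, the fold changes were -0.22, 0.74 and 0.43. The prefix itself accounted for 40.1% of the rank sum of squares of ORM1 (permutation p = 0.0142, adjusted p = 0.0425 over the 3 members), with medians of 0.306, 0.523, 0.866, 2.36 and 1.78 CPM in prefixes 6 to 10. It accounted for 32.2% in HP (adjusted p = 0.074) and 9.48% in HBD (adjusted p = 0.638). The diet accounted for 0.823%, 4.60% and 11.2% of the rank sum of squares of HP, ORM1 and HBD (permutation tests, adjusted p = 0.649, 0.402 and 0.242). A grouping into 5 prefixes takes up more of the sum of squares without any relation than one into 2 diets. The shares of prefix and diet are therefore not compared. The prefixes appear in the names of the sequencing files, and what they stand for is not given in the sources used here.

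No pair of HP, ORM1 and HBD passed the test for varying together over the 29 calves. For HP and ORM1, Pearson's r on log2(CPM + 1) was 0.092 (permutation p = 0.638) and Spearman's rho 0.190 (permutation p = 0.322). For HP and HBD the values were r = 0.164 (permutation p = 0.398) and rho = 0.263 (permutation p = 0.167). For ORM1 and HBD they were r = -0.0614 (permutation p = 0.758) and rho = -0.0348 (permutation p = 0.856). Adjusted over the 3 pairs, the lowest p was 0.758 for r and 0.483 for rho.

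**Figure D3:**
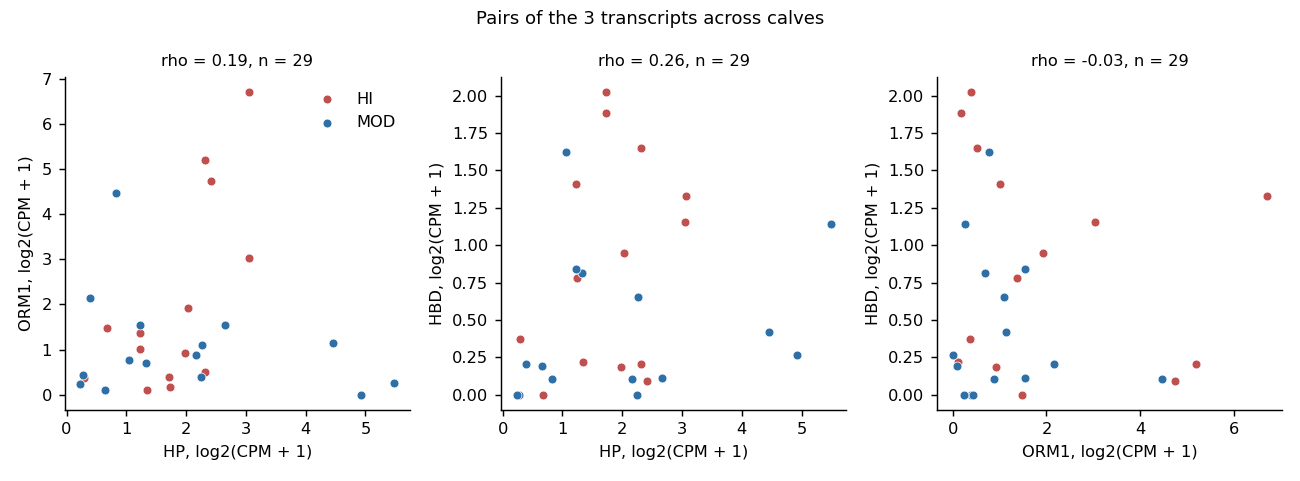
Pairs of HP, ORM1 and HBD in 29 calves on log2(normalised CPM + 1) axes, HI in red and MOD in blue, with Spearman's rho above each panel. In the first panel MOD calves 2532 and 1395, the highest in HP, have 0.191 and 0 CPM of ORM1. MOD calf 2537, ranked next in HP, has 1.21 CPM, above the MOD median of 0.715 CPM. The 3 HI calves with the most ORM1 lie at 3.96 to 7.33 CPM of HP.

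The highest calves of each transcript were then compared. None of the 3 highest calves was shared within any pair of transcripts. Among the 5 highest, HP and ORM1 shared HI calves 1388 and 2570, which is 40% of each list, and HBD shared none with either. Among the 7 highest, HI calf 2535 was also shared by HP and ORM1, and calves 1388 and 2570 were then on all 3 lists. HI calf 2570 had 7.33 CPM of HP, 103 CPM of ORM1 and 1.51 CPM of HBD, and HI calf 1388 had 7.28, 7.21 and 1.22 CPM. In the opposite direction, the MOD calf with the most HP, 2532, had 3 reads of ORM1, and the MOD calf with the most ORM1, 3622, had 10 reads of HP and 1 of HBD.

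**Figure D4:**
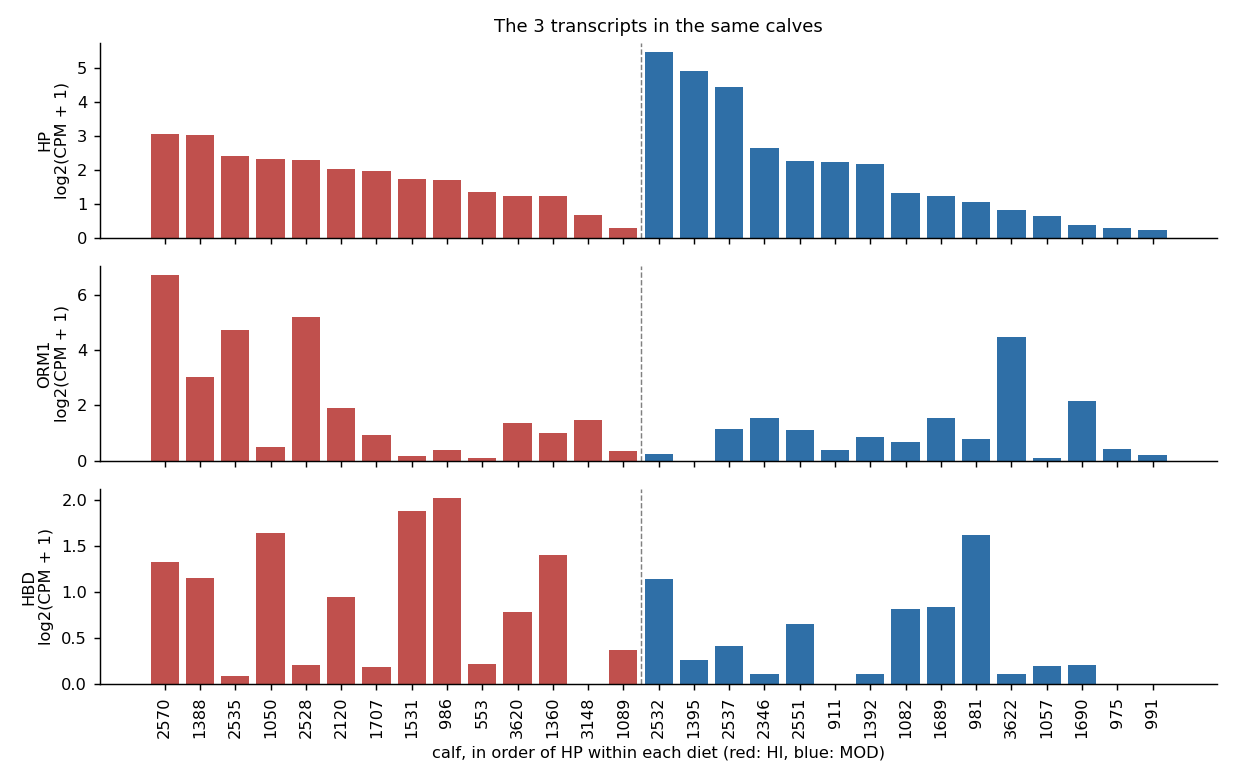
HP, ORM1 and HBD in the same 29 calves as log2(normalised CPM + 1), in descending order of HP within HI (red) and MOD (blue). In HI the bars of ORM1 are highest among calves on the left, which also have more HP. In MOD the 3 calves with the most HP have 0 to 1.21 CPM of ORM1, against a MOD median of 0.715 CPM.

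Within the diets, HP and ORM1 varied together past the test in HI by Pearson's r, but not by rho after adjustment. In HI r was 0.656 (permutation p = 0.0114, adjusted p = 0.0341 over the 3 pairs) and rho 0.596 (permutation p = 0.028, adjusted p = 0.0841). Without calves 1089 and 2570, the farthest from the HI median of HP, r in HI was 0.516 (permutation p = 0.0892) and rho 0.427 (permutation p = 0.167), so that the relation no longer passed the test and rests in part on those calves. In MOD r was -0.272 (permutation p = 0.331) and rho -0.0643 (permutation p = 0.823), and without calves 2532 and 1395 they were -0.0390 and 0.297. The difference of r between the diets was 0.928 (permutation of the diets, p = 0.0138, adjusted p = 0.0413 over the 3 pairs), whereas the difference of rho was 0.660 (permutation p = 0.128, adjusted p = 0.384). Permuting the diets also mixes calves that differ in level and spread. The SD on log2(CPM + 1) was 0.811 in HI and 1.71 in MOD for HP, and 2.11 and 1.13 for ORM1. The p for r is therefore not specific to a difference of correlation. Over all calves, r of HP and ORM1 was 0.341 (permutation p = 0.0815) without calves 2532 and 1395, the farthest from the median of HP, and rho was 0.424 (permutation p = 0.0281, adjusted p = 0.0844).

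Within prefixes, calves of both diets were pooled, so that these values do not bear on the relation within HI. In prefixes 6, 7, 8 and 9, with 6 calves each, r of HP and ORM1 was 0.00426, 0.784, -0.794 and -0.690, and over the 12 tests the lowest adjusted p was 0.283 (exact permutation). Prefix 10 held 5 calves and was not tested. After diet and prefix were removed, r was -0.105 for HP and ORM1 and -0.0848 for ORM1 and HBD. For HP and HBD it was 0.364 (permutation p = 0.0525, adjusted p = 0.157).

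Of the study's acute phase response group, HP and ORM1 stood beside NGFR, a neurotrophin receptor, and CRABP1, a carrier of retinoic acid within cells. In this group 0 of 4 transcripts passed the test across all genes, 1 of 4 had a log2 fold change above 0, and the median was -0.24, with -0.28 for NGFR (p = 0.514) and -0.47 for CRABP1 (p = 0.278), each with an adjusted p of 0.999 by limma. The study drew this group from its diet-responsive transcripts of these samples, so that its directions are not independent evidence of a diet difference. The other acute phase proteins of a longer fixed list, such as the serum amyloids, fibrinogens and ceruloplasmin, could not be examined, since 2 of 18 were paired with an identifier. Of 12 genes of haemoglobin and iron handling 1 was paired, HBD itself, so that no other globin or red cell transcript was available to set beside it.

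Across calves, HP and NGFR rose and fell together (r = 0.634, adjusted p = 0.022; rho = 0.670, adjusted p = 0.00349, permutation tests over 93 pairs of a member with another named gene). NGFR had 91.0 CPM in MOD calf 2532, 18.0 in 1395 and 18.7 in 2537, and a median of 7.80 CPM over the 29 calves. The most NGFR, 125 CPM, was in MOD calf 911 at 3.74 CPM of HP, and HI calves 1050 and 1707 and MOD calf 2346, with 36.0, 24.2 and 21.2 CPM of NGFR, had 3.99, 2.96 and 5.31 CPM of HP. Without calves 2532 and 1395 r was 0.506 (permutation p = 0.00858). Within MOD r was 0.671 (adjusted p = 0.0267) and rho 0.679 (adjusted p = 0.019), whereas within HI r was 0.475 (adjusted p = 0.137) and rho 0.582 (adjusted p = 0.0635, permutation tests over 40 subsets) and did not pass. Of the prefixes tested, rho was above 0 in 4 of 4, from 0.257 to 0.943. HP and CRABP1 had r = 0.324 and rho = 0.214, and ORM1 had r = -0.109 with NGFR and -0.376 with CRABP1, none past the test.

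HP also varied with VCAM1, an adhesion molecule of activated endothelium that binds leukocytes (r = 0.705, adjusted p = 0.00186; rho = 0.717, adjusted p = 0.00279, permutation tests). VCAM1 was between 1.22 and 14.9 CPM, and the calves 2532, 1395 and 2537 had 13.7, 12.9 and 11.5 CPM, all above the median of 6.18 CPM. HI calf 2528 had the most VCAM1, at an HP level of 3.96 CPM. Without calves 2532 and 1395 r was 0.649 (permutation p = 0.00027), it was 0.663 within HI and 0.822 within MOD, and rho was above 0 in 3 of 4 prefixes, with -0.429 in prefix 9. The endothelial marker CLDN5 had a rho of 0.343 with HP and did not pass the test. COL15A1, the remaining paired gene of the blood vessel list, went the other way. Its rho with HP was -0.412 and did not pass either (adjusted p = 0.354, permutation test).

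In the opposite direction, HP was lower where NEFH, the heavy neurofilament chain of large axons, was higher (r = -0.784, adjusted p = 0.00186; rho = -0.648, adjusted p = 0.00428, permutation tests). Such a rho is not particular to NEFH. Of the 13784 genes ranked, 2.5% had a rho with HP below -0.625, and the lowest was -0.820. NEFH was 154 CPM in calf 2532, 115 CPM in 1395 and 313 CPM in 2537, against a median of 607 CPM, and MOD calf 911 had 207 CPM at 3.74 CPM of HP. Calf 1395 was the lowest of all 29. The sign held in 4 of 4 prefixes, with rho from -0.943 to -0.600, and without calves 2532 and 1395 r was -0.601 (permutation p = 0.00092). Neither of the other neuronal genes on that list passed the test with HP. CHGA, of neuroendocrine granules, had a rho of -0.293, and GAD2, of GABA synthesis, had 0.00197. Whether the cell composition of the dissected piece has a part in the HP values was not tested.

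Neither VCAM1, NGFR nor NEFH passed with ORM1. It rose with PRL, the prolactin gene of the anterior pituitary (r = 0.560, adjusted p = 0.0418; rho = 0.660, adjusted p = 0.00349, permutation tests), and with CGA, the alpha chain shared by pituitary glycoprotein hormones (r = 0.496, adjusted p = 0.0984; rho = 0.654, adjusted p = 0.00349, permutation tests). HI calves 2528, 2570 and 2535 had 43.9, 36.1 and 28.2 CPM of PRL and MOD calf 3622 had 27.1 CPM, above the median of 8.02 CPM. HI calf 3148 had the most PRL, 46.8 CPM, at 1.78 CPM of ORM1, and MOD calf 991 had 23.96 CPM of PRL with 2 reads of ORM1. Calf 2532, the highest in HP, had no PRL read and 3 reads of CGA.

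Without calves 2570 and 2528, the farthest in ORM1, r was 0.475 with PRL (permutation p = 0.0132) and 0.476 with CGA (permutation p = 0.0106). Within HI rho of ORM1 and PRL was 0.820 (adjusted p = 0.0043), and within MOD it was 0.411 (adjusted p = 0.181, permutation tests over 40 subsets). In the prefixes rho with PRL was above 0 in 3 of 4 and did not pass the test in any. The summed level of PRL and CGA, the 2 of 2 pituitary markers, was 2.37 to 51.0 CPM in HI and 0.191 to 34.2 CPM in MOD, with medians of 16.4 and 8.30 CPM, and PRL was at 0 in 2 MOD calves. The part of pituitary tissue in the ORM1 values was not tested.

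HBD varied with none of the 31 other named genes past the test, with rho from -0.403 to 0.309 and a smallest adjusted p of 0.354 (permutation tests). This includes CLDN5 and VCAM1 of the vessel wall. HBD had fewer than 10 reads in 18 of the 29 calves.

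**Figure D5:**
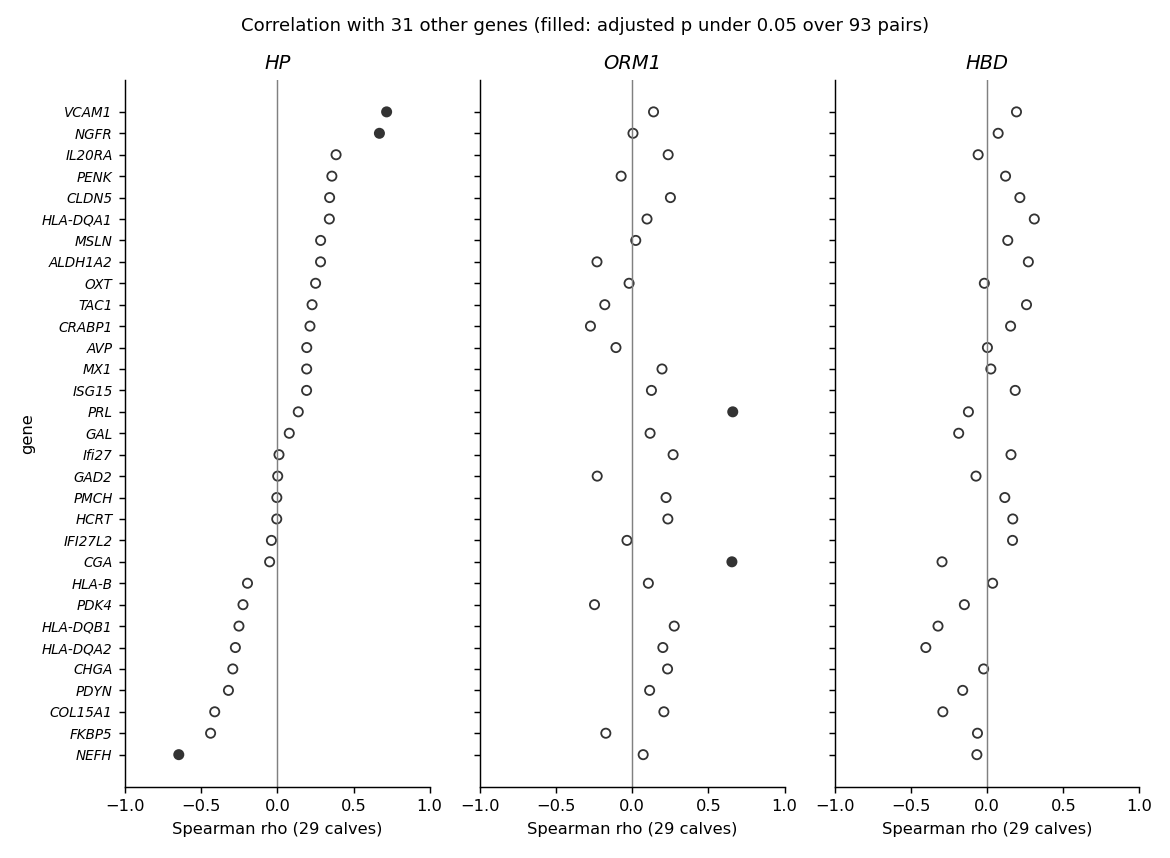
Spearman's rho of HP, ORM1 and HBD with 31 other named genes over 29 calves, in the order of HP, filled where the adjusted p was under 0.05 over 93 pairs. HP passes with VCAM1, NGFR and, below 0, NEFH, ORM1 passes with PRL and CGA, and HBD passes with none.

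The glucocorticoid-responsive genes FKBP5 and PDK4 had rho values of -0.439 and -0.226 with HP and -0.174 and -0.248 with ORM1, which did not pass the test. Of the interferon-responsive genes ISG15, MX1, Ifi27 and IFI27L2, none passed with HP, with rho from -0.0394 to 0.192, nor with ORM1, with rho from -0.0350 to 0.268. IL20RA, a receptor chain for interleukins of the IL-10 family, had 0.385 with HP and 0.235 with ORM1, and did not pass either.

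Ranked by Spearman's rho among all genes tested, as a description over the same 29 libraries, the named genes most like HP were VCAM1 at rank 56, ANGPTL7 (0.715) at rank 60 and NGFR at rank 135 of 13784. ANGPTL7, a secreted angiopoietin-like protein, had 31.7, 37.1 and 28.8 CPM in calves 2532, 1395 and 2537 and a median of 13.3 CPM. The highest rho was that of a gene without a symbol in the sources, ENSBTAG00000018169, at 0.880, and 906 genes had a rho beyond 0.6 in either direction. ORM1 stood at rank 4704 by its rho with HP.

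For ORM1 the named genes were PRL at rank 16, CGA at rank 17 and ISOC2 (0.515) at rank 51, the highest gene was ENSBTAG00000001638 at 0.911, and 25 genes had a rho beyond 0.6. For HBD they were MSX1, a homeobox factor (0.521, rank 15), ENTR1 (0.509, rank 18) and RPS23, a ribosomal protein (0.459, rank 43), the highest was ENSBTAG00000001827 at 0.580, and 0 genes had a rho beyond 0.6. The numbers of genes with such a rho thus ran from 906 for HP through 25 for ORM1 to 0 for HBD. Genes are not independent of each other, and HBD entered with few reads.

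HP was also related to how the reads of a library were spread over genes. The share of reads taken by the single most abundant gene was 2.21 to 4.82%, and HP was lower where it was higher (r = -0.539, adjusted p = 0.0361; rho = -0.721, adjusted p = 0.00018 over 9 tests, permutation tests). Without the 2 calves farthest in that share r was -0.586 (permutation p = 0.00117). Within MOD rho was -0.764 (adjusted p = 0.00371). Within HI neither r, at -0.447 (adjusted p = 0.175), nor rho, at -0.538 (adjusted p = 0.080), passed (permutation tests over 8 subsets). By prefix, rho was below 0 in 4 of 4, from -0.943 to -0.200, whereas r in prefix 9 was 0.0762. Neither ORM1 nor HBD passed with that share, and none of the 3 passed with the number of reads or the normalisation factor, for which HP had rho values of 0.150 and 0.453 (adjusted p = 0.647 and 0.0659, permutation tests). The part of library composition in the HP values was not tested.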

How the data were processed

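The 29 libraries were grouped by diet from the labels. Per the submitters' processing notes, FastQC 0.11.8, cutadapt 2.6, STAR 2.6.1, R 3.4 and edgeR 3.5 were used with the bovine build UMD3.1, and the libraries were made with a stranded kit. The strand setting of the counting is not given in the sources used here. The deposited values are a normalised signal, CPM that the authors computed with the TMM-adjusted library size. Dividing each column by the value of 1 read gave whole reads for 100% of the values (tolerance 0.01 reads, largest deviation 7.94e-05), totals of 11820640 to 17206435 and TMM factors of 0.795 to 1.12. Depth therefore covers counting error only, and a count of 0 allows 3 reads. All columns were assigned to a calf. The labels give no replicate numbers, and calves are the replicates.

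Symbols came from 114 identifiers that the study pairs with names. These are its lists of diet-responsive transcripts in these calves, 39 for the remaining hypothalamus and 80 for the ARC. Gene lists could be filled only from them, so that list medians are not independent evidence of a diet difference. The reference gene table (assembly ARS-UCD2.0) matched 0 identifiers by Ensembl name, holds HP and ORM1 by symbol and does not hold HBD, so no coordinates or sequences are given. Of 88 listed genes 34 were paired, and 6 of 13 lists reached 80%: the acute phase pathway of the study, interferon-responsive, antigen presentation, pituitary, hypothalamic peptide and neuronal genes. Called by limma were 0 genes of each, with median log2 fold changes of -0.24, -0.22, -0.12, 0.56, -0.67 and 0.44. The members and lists were chosen with earlier results of these data known. Named genes were the members, NGFR, CRABP1, listed genes with an identifier, and for each member the 3 named genes with the largest rho and a mean over 1 CPM, besides the single identifier with the largest rho.

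The main test was limma 3.58.1 with a trend (R 4.3.3) on log2(CPM + 1), HI minus MOD, over the 13785 genes that exceeded 1 CPM in 14 or more calves, called at a Benjamini-Hochberg adjusted p under 0.10 and a fold change over 1.5. This scale understates the change of low transcripts. Means, medians, correlations and prefix shares used 100000 permutations in Python 3.11.15 with NumPy 2.4.6, two-sided, or exact permutation for 6 calves. Alternatives were a pseudocount of 0.1, 2 other filters, edgeR 4.0.16 (quasi-likelihood and exact tests) and DESeq2 1.42.0 on recovered reads, limma-voom with quality weights, RLE factors, CPM without TMM factors, the prefix as a factor, the 4 calves left out, and each calf left out. Added after seeing the data were the difference of correlations between diets, the checks of relations in subsets, the prefix shares and the distances between calves (500 genes per pair). The fit was tested on simulated data for HI against MOD over 13785 genes, where it called 40 of 50 genes lowered and 43 of 50 raised by 1 on the log2 scale, 50 of 50 raised by 2 or by 3, and 12 of 13585 unchanged genes. The changed genes were drawn at random from genes past the filter, whose median biological coefficient of variation was 0.331. That of HP, ORM1 and HBD was 1.14, 1.56 and 1.17, and HBD was not simulated. The simulation therefore gives no detection rate for these 3 transcripts.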

Additional observations from a re-analysis of the deposited data

Results flagged for a closer look

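Pearson's r of HP and ORM1 in HI minus that in MOD was 0.928, with 0.656 in HI (n = 14) and -0.272 in MOD (n = 15). A test in which the diets were permuted gave p = 0.0138 (adjusted p = 0.0413 over the 3 pairs). The same difference in Spearman's rho was 0.660 and did not pass (permutation p = 0.128, adjusted p = 0.384). The spread of HP and of ORM1 also differed between the diets, so that the p for r is not specific to a difference of correlation. In HI without calves 1089 and 2570 r was 0.516 and rho 0.427, and in MOD without calves 2532 and 1395 r was -0.0390 and rho 0.297, so that by rank both were above 0.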

How the results depend on the processing

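The direction of HP depended on the fit: it was -0.20 on the log2 scale by limma and 1.00 with sample quality weights, and -0.33 (without MOD calf 991) to 0.049 (without MOD calf 2532) with each calf left out. ORM1 (0.59 to 1.19) and HBD (0.35 to 0.53) kept their direction with each calf left out and in the 10 other fits. No fit called HP, ORM1 or HBD. DESeq2 called 2 other genes where limma called 0. With each calf left out, differences in CPM were -5.26 to -2.14 for HP means, 0.129 to 1.45 for HP medians, 3.71 to 11.98 for ORM1 means (p = 0.0471 without MOD calf 3622), 0.307 to 0.877 for ORM1 medians, 0.466 to 0.738 for HBD means and 0.563 to 0.776 for HBD medians. The p of HBD means fell below 0.05 in 8 of 29 omissions, and that of HBD medians rose above it in 20 of 29 and without the 4 calves that stood apart (0.605 CPM, permutation p = 0.136). The r of HP and ORM1 was 0.092 over all calves, 0.656 within HI, -0.272 within MOD, -0.105 after diet and prefix, and -0.00485 (without HI calf 2570) to 0.193 with each calf left out. That of HP and HBD (0.102 to 0.239) and of ORM1 and HBD (-0.229 to -0.00023) kept its sign. The causes were not tested. No paired analysis was possible because the labels give no replicate numbers or blocks. HBD had the lowest counts, with fewer than 10 reads in 18 calves.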
